A study of Homo sapiens with 9 samples.

Results

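The messenger RNAs of the vitamin K dependent clotting proteins and of the enzymes that make these proteins functional were examined in HepG2 cells given GC-1, T3 or vehicle. The set held 10 genes chosen by symbol: F2, F7, F9, F10, PROC, PROS1, PROZ, GGCX, VKORC1 and GAS6. Each probe set to which the array annotation gave exactly 1 of these symbols was used. This gave 10 of the 11963 genes named alone by at least 1 probe set and 14 of 22215 probe sets, with 4 for GGCX, 2 for GAS6 and 1 for each of the other 8 genes. GGCX and VKORC1 encode enzymes of the vitamin K cycle, and GAS6 is a growth factor that is modified in the same way but is not a clotting factor, so the name of the set is loose for these members.

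HepG2 is an established cell line derived from a human hepatoma, and a single such line stands here for the hepatocyte. Cells were treated for 24 h with 10 nM GC-1, 10 nM T3 (triiodothyronine, the active thyroid hormone) or vehicle, with 3 Affymetrix arrays in each group, 9 in all. All groups, vehicle included, were kept in medium whose serum had been depleted of thyroid hormone. GC-1, or sobetirome, is a synthetic ligand that prefers the beta thyroid hormone receptor, and it carries carbon groups where T3 carries iodine. Values are log2 signals made by the authors with RMA, so a difference of 1 would be a doubling, and they compare 1 probe set between groups but not 1 gene with another. Whether replicates came from different cultures is not said in the labels, so the spread that the p-values rest on may be technical.

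Array medians lay between 7.02 and 7.06. T3 replicates 1 and 2 had interquartile ranges of 2.99 and 2.97, against 2.83 to 2.88 on the other arrays, and stood at -14.6 and -11.8 on the second principal component while all others lay between 0.36 and 8.30. T3 differences of F2, F7, F9, F10, PROC and VKORC1 are therefore also given with T3 replicate 3 alone. For the other probe sets they are given only where this setting changed their sign. That setting, 1 of the 17 alternatives below, leaves 1 T3 array, which is assumed to vary like the GC-1 and vehicle arrays, so it gives a value with no replicate check of T3 and supports no call. Of 8 hepatocyte markers, 7 were measured, and their mean signal was 13.83 to 13.87 on GC-1 arrays, 13.86 to 13.89 on T3 arrays and 13.76 to 13.80 on vehicle arrays. Among them APOB rose with T3 (log2 0.21, adjusted p = 0.0419, limma) and none passed with GC-1. The mean of 5 endothelial markers was 5.79 to 5.97, 5.69 to 5.90 and 5.78 to 5.85 in the same order, and none of the 5 passed with either ligand. With T3, CDH5 had a log2 difference of 0.23 and the other 4 had differences of -0.12 (PECAM1), -0.11 (EMCN), -0.08 (VWF) and -0.03 (TEK). The means of the 4 measured blood cell markers (8.14 to 8.20, 8.02 to 8.16 and 8.08 to 8.10) and of the 5 fibroblast markers (6.23 to 6.26, 6.08 to 6.27 and 6.18 to 6.26) held no gene past the threshold with either ligand. Of 4 bile duct markers, KRT19 and SPP1 fell with both ligands, and the mean of the 4 was 9.73 to 9.79 on GC-1 arrays, 9.72 to 9.82 on T3 arrays and 9.97 to 10.02 on vehicle arrays. Whether that shift plays a part in the results below was not tested.

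Vitamin K dependent clotting proteins are made in the liver with a cluster of glutamates that must be carboxylated before the protein can bind calcium and attach to membranes. The gamma-glutamyl carboxylase GGCX does this with reduced vitamin K as cofactor, and the epoxide reductase VKORC1, the target of warfarin, recycles the vitamin. The finished proteins work on both sides of clotting. Prothrombin (F2) and factors VII, IX and X (F7, F9, F10) drive thrombin formation, while protein C (PROC), its cofactor protein S (PROS1) and protein Z (PROZ) restrain it. GAS6 resembles protein S and activates the receptor kinases TYRO3, AXL and MERTK.

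With T3, F7, F10, VKORC1 and PROC rose, by 1.16-fold to 1.42-fold, and no member fell. With GC-1 only F7 passed the test, at 1.21-fold higher, while F10, VKORC1 and F2 had smaller differences in the same direction that did not pass. F2, F9, GGCX, PROS1, PROZ and GAS6 passed with neither ligand. In the limma fit across all probe sets, with a Benjamini-Hochberg adjusted p under 0.05 counted as a change, 4 of the 14 probe sets were higher and 0 lower with T3, where 4.00% of all probe sets were higher and 1.50% lower (5.50% in all). With GC-1, 1 was higher and 0 lower, where 1.81% of all probe sets were higher and 0.986% lower (2.80% in all). F7 was the 1 probe set higher with both ligands, where 1.68% of all were. With GC-1, 5 of the 14 lay above vehicle on every array and 0 below, where 10.8% and 15.6% of all probe sets did so (26.5% in all). With T3, 7 lay above and 1 below, where 12.5% and 12.4% did so (24.9% in all). An unadjusted p under 0.05 was found for 4 of the 14 with GC-1 and 8 with T3, where 15.9% and 21.1% of all probe sets had one. The median log2 difference of the 14 was 0.07 with GC-1 and 0.12 with T3, beside -0.004 and -0.015 over all 22215. The ligand comparisons share the 3 vehicle arrays. In RNA from whole cultures, fewer cells that make a transcript and less of it per cell cannot be told apart.

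**Figure D1:**
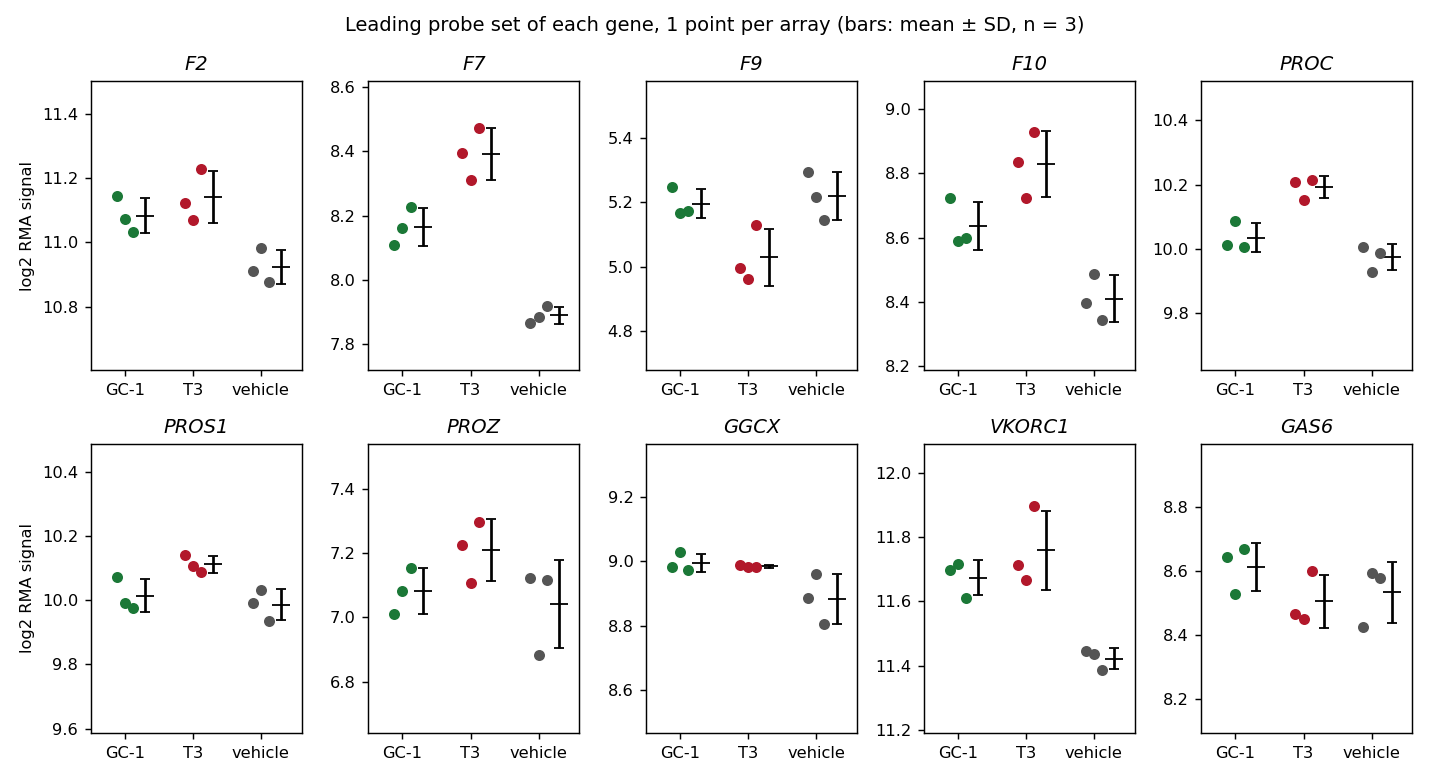
Log2 RMA signal (vertical axes, each spanning the same range of log2 units) of the leading probe set of each of the 10 genes on the 3 GC-1, 3 T3 and 3 vehicle arrays. Coloured points are single arrays with replicates 1 to 3 from left to right, and bars are mean ± SD (n = 3). In F2, F7, F10, VKORC1 and GGCX all ligand arrays lie above all vehicle arrays, and in F7, PROC and PROS1 all T3 arrays lie above all GC-1 arrays.

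Promoter sequence, the 250 bases before the annotated start in RefSeq (GRCh38.p14, gene strand, 5′ to 3′), was found for all 10 genes. It is printed for F7 and F2, the members whose window holds AGGTCA, the core to which thyroid hormone receptors and many other nuclear receptors bind. It is also printed for F10 and VKORC1, which rose with T3 and whose windows do not hold these letters. Capitals mark AGGTCA on the opposite strand, read here as TGACCT.
F7, chr13:113105541-113105790, plus strand: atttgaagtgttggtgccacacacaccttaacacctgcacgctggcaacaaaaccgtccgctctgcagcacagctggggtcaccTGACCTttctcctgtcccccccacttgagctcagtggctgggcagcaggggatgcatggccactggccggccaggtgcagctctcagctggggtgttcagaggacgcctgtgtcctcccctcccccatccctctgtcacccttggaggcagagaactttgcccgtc
F2, chr11:46718963-46719212, plus strand: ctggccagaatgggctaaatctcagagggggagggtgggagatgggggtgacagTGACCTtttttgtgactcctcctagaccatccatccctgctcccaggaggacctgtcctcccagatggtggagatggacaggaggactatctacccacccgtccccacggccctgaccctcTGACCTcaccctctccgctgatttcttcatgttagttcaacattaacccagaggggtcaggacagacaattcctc
F10, chr13:113122549-113122798, plus strand: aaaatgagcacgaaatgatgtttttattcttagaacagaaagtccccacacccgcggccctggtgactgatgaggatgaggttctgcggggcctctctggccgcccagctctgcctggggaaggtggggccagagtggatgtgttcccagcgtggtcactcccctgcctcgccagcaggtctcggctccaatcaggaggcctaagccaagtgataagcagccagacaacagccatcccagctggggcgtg
VKORC1, chr16:31094798-31095047, minus strand: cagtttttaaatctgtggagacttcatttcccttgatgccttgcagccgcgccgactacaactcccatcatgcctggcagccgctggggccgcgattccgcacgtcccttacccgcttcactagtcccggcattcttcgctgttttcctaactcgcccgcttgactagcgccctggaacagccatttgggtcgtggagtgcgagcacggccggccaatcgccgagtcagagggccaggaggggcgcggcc

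The match in F7 began 166 bases before the start, and those in F2 began 196 and 75 bases before it. Searched on both strands, AGGTCA was in the windows of 2 of the 10 genes and in 12.1% of 35116 human promoter windows of the same length. The direct repeat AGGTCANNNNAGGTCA was in none of the members' windows and in 0.0142% of all windows. The letters GTTAAT, part of the site of the liver factor HNF1, were in the F2 window and in 6.23% of all windows. These matches do not overlap each other. They describe letters and not bound sites, and sequence farther from the start was not searched.

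Among the factors that drive clotting, F7, which starts the extrinsic pathway when it meets tissue factor, changed most. Its probe set 207300_s_at stood at 8.11, 8.16 and 8.23 on the GC-1 arrays, at 8.40, 8.31 and 8.47 on the T3 arrays and at 7.87, 7.88 and 7.92 on the vehicle arrays. The groups did not overlap, with T3 highest and vehicle lowest. F7 rose 1.21-fold with GC-1 (log2 0.28 ± 0.06 SE, n = 3 per group, adjusted p = 0.0259, limma) and 1.42-fold with T3 (0.50 ± 0.06, adjusted p = 0.00034). The T3 call held under every alternative setting that kept more than 1 T3 array. T3 replicate 3 alone, the highest F7 array, gave 0.58. The GC-1 call was lost without any 1 of the 6 GC-1 or vehicle arrays (adjusted p = 0.0528 to 0.112).

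F10, whose active form cuts prothrombin, lies next to F7 on chromosome 13. Its probe set 205620_at read 8.72, 8.59 and 8.60 with GC-1, 8.84, 8.72 and 8.93 with T3, and 8.40, 8.49 and 8.35 with vehicle. All ligand arrays were above all vehicle arrays, and GC-1 and T3 overlapped by 1 value each at 8.72. F10 rose 1.34-fold with T3 (log2 0.42 ± 0.07, adjusted p = 0.00385, limma), and the call held in every alternative setting that kept more than 1 T3 array. T3 replicate 3 alone, the highest F10 array, gave 0.52. With GC-1 the log2 difference was 0.23 ± 0.07 (adjusted p = 0.114), and it passed with the trend and robust options of eBayes (adjusted p = 0.0333), with array weights (0.0456) and without dim probe sets (0.0388).

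F2 encodes prothrombin, the precursor of thrombin. Its signal was 11.14, 11.07 and 11.03 with GC-1, 11.12, 11.07 and 11.23 with T3, and 10.91, 10.98 and 10.88 with vehicle. All 6 ligand arrays lay above the vehicle arrays, and the ligands overlapped. The log2 difference was 0.16 ± 0.06 with GC-1 (adjusted p = 0.198, limma) and 0.22 ± 0.06 with T3 (adjusted p = 0.0549). The T3 difference passed under some of the settings that kept more than 1 T3 array, and its adjusted p in limma ranged from 0.00363 to 0.177. T3 replicate 3 alone, the highest F2 array, gave 0.31.

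F9, the factor missing in haemophilia B, was the member with the largest negative difference under T3. It read 5.25, 5.17 and 5.17 with GC-1, 5.00, 4.96 and 5.13 with T3, and 5.30, 5.22 and 5.15 with vehicle. The T3 arrays lay below the vehicle and GC-1 arrays, while GC-1 and vehicle overlapped. The log2 difference was -0.02 ± 0.06 with GC-1 (adjusted p = 0.904, limma) and -0.19 ± 0.06 with T3 (adjusted p = 0.102). The probe set is dim, well under the median of 7.04 over all probe sets, and RMA compresses differences in that range. The T3 difference passed with array weights (-0.22, adjusted p = 0.0421) and without T3 replicate 3 (-0.24, adjusted p = 0.0375), and T3 replicate 3 alone, the highest T3 array for F9, gave -0.09.

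Among the proteins that restrain clotting, PROC alone passed, and with T3 alone. Protein C, once activated by thrombin, inactivates factors V and VIII. Its probe set stood at 10.01, 10.09 and 10.01 with GC-1, 10.21, 10.15 and 10.22 with T3, and 10.01, 9.93 and 9.99 with vehicle. The T3 arrays were above all other arrays, and GC-1 and vehicle overlapped. PROC rose 1.16-fold with T3 (log2 0.22 ± 0.05, adjusted p = 0.0274, limma), against a log2 difference of 0.06 ± 0.05 with GC-1 (adjusted p = 0.612). Among settings that kept more than 1 T3 array, the T3 call was lost after quantile normalization (adjusted p = 0.0501, limma). It was also lost with a replicate block (0.0755), with the interquartile range as a covariate (0.0546) and with only the groups compared (0.0688). Leaving out vehicle replicate 1, 2 or 3 (0.0656, 0.104 and 0.0817) or T3 replicate 1 (0.0841) lost it as well. T3 replicate 3 alone, the highest PROC array, gave 0.24.

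PROS1, the cofactor of activated protein C, read 10.07, 9.99 and 9.98 with GC-1, 10.14, 10.11 and 10.09 with T3, and 9.99, 10.03 and 9.93 with vehicle. The T3 arrays were above the rest by a small margin, and GC-1 and vehicle overlapped. The log2 difference was 0.03 ± 0.05 with GC-1 (adjusted p = 0.860, limma) and 0.13 ± 0.05 with T3 (adjusted p = 0.184). The PROS1 probe set is of a type that can bind several transcripts, as are those of F7, VKORC1 and PROZ and GGCX 214006_s_at. The pseudogene PROS2P lies on the same chromosome as PROS1, and whether part of the PROS1 signal belongs to it was not tested.

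PROZ, the cofactor of the factor Xa inhibitor SERPINA10, had its widest spread in vehicle. It read 7.01, 7.08 and 7.15 with GC-1, 7.23, 7.11 and 7.30 with T3, and 7.12, 6.88 and 7.12 with vehicle, and all groups overlapped. The log2 difference was 0.04 ± 0.08 with GC-1 (adjusted p = 0.861, limma) and 0.17 ± 0.08 with T3 (adjusted p = 0.236). PROZ follows F10 on chromosome 13, with 9118 bases between them. Of the 10 members 4 lie on this chromosome, F7, F10, PROZ and GAS6, but GAS6 is 648162 bases away from PROZ.

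VKORC1 changed among the enzymes and GGCX did not pass. The VKORC1 probe set stood at 11.70, 11.72 and 11.61 with GC-1, 11.71, 11.67 and 11.90 with T3, and 11.44, 11.44 and 11.39 with vehicle. Every ligand array was above every vehicle array, the ligands overlapped, and T3 replicate 3 was the highest of all. VKORC1 rose 1.26-fold with T3 (log2 0.34 ± 0.06, adjusted p = 0.0109, limma). Among settings that kept more than 1 T3 array, the T3 difference passed in all but that without vehicle replicate 3 (adjusted p = 0.0542). T3 replicate 3 alone gave 0.47. With GC-1 the log2 difference was 0.25 ± 0.06 (adjusted p = 0.0683), and it passed in 7 of 17 settings (adjusted p from 0.00257 to 0.218 over all 17).

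The carboxylase GGCX was read by 4 probe sets, none of which passed with either ligand. The leading one, 205351_at, read 8.98, 9.03 and 8.97 with GC-1, 8.99, 8.98 and 8.98 with T3, and 8.89, 8.96 and 8.80 with vehicle. Its ligand arrays lay just above its vehicle arrays, with log2 differences of 0.11 ± 0.05 with GC-1 (adjusted p = 0.327, limma) and 0.10 ± 0.05 with T3 (adjusted p = 0.295). The other 3 probe sets ranged from -0.04 to 0.03 with GC-1 and from -0.01 to 0.11 with T3, and in each of them the groups overlapped.

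The GGCX probe sets did not follow each other from array to array. Pearson's r between pairs of them over the 9 arrays, given as a description, ran from -0.39 to 0.34. Probe set 213705_at correlated at 0.07, 0.25 and -0.39 with the other GGCX probe sets. GGCX and MAT2A, which makes S-adenosylmethionine, overlap at their ends in the RefSeq annotation. Against the 2 MAT2A probe sets 213705_at had r of -0.32 and -0.33, so its pattern resembled neither gene closely.

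Neither of the 2 probe sets of GAS6 passed with either ligand. Probe set 1598_g_at read 8.65, 8.53 and 8.67 with GC-1, 8.47, 8.45 and 8.60 with T3, and 8.43, 8.60 and 8.58 with vehicle, with all groups overlapping. The dimmer 202177_at read 5.65, 5.78 and 5.57 with GC-1, 5.25, 5.57 and 5.55 with T3, and 5.45, 5.54 and 5.64 with vehicle, again with overlap. Against vehicle the log2 differences were 0.08 ± 0.07 and 0.12 ± 0.09 with GC-1 (adjusted p = 0.624 and 0.590, limma) and -0.03 ± 0.07 and -0.09 ± 0.09 with T3 (adjusted p = 0.857 and 0.632).

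**Figure D2:**
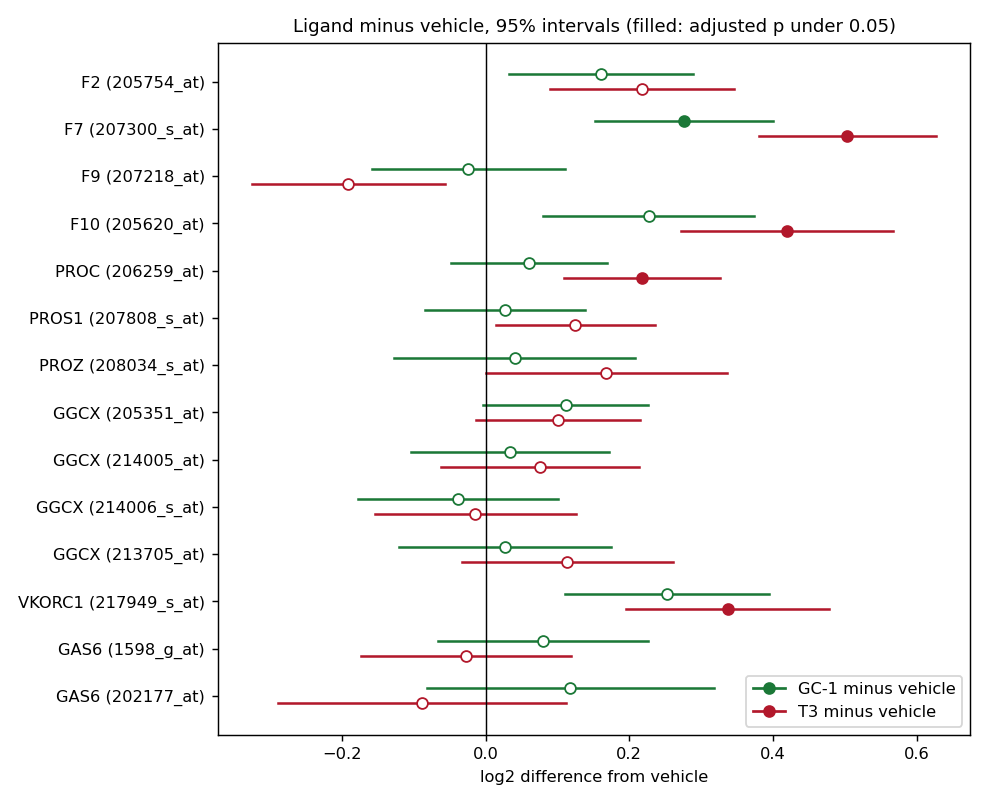
Log2 difference from vehicle (horizontal axis) of the 14 probe sets, GC-1 in green above T3 in red, with 95% confidence intervals from limma. Filled points have an adjusted p under 0.05: F7 with both ligands, and F10, PROC and VKORC1 with T3.

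The next comparison set GC-1 directly against T3 at the matched dose of 10 nM and the matched time of 24 h. All 14 probe sets were compared in this 1 pair of ligands, with p-values adjusted over all 22215. By limma 0 of the 14 passed, where 0% of all probe sets did, and 5 had an unadjusted p under 0.05, where 14.1% of all probe sets did. The trend and robust options of eBayes also called 0 of the 14. A missed threshold is no proof of equal action, so the interval of each difference is given.

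The smallest p among the members was that of F7, with GC-1 minus T3 at -0.23 on the log2 scale (95% interval -0.35 to -0.10, adjusted p = 0.198, limma), and all GC-1 arrays lay below all T3 arrays. PROC differed by -0.16 (interval -0.27 to -0.05, adjusted p = 0.241), also with all GC-1 arrays below all T3 arrays. F10 differed by -0.19 (interval -0.34 to -0.04, adjusted p = 0.265), with overlap. F9 went the other way, at 0.17 (interval 0.03 to 0.30, adjusted p = 0.276), with all GC-1 arrays above all T3 arrays. The fifth was GAS6 202177_at at 0.21 (interval 0.01 to 0.41, adjusted p = 0.343), with overlap.

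For the remaining 9 probe sets the interval included 0. In VKORC1 GC-1 minus T3 was -0.08 (interval -0.23 to 0.06), in F2 -0.06 (interval -0.18 to 0.07) and in GGCX 205351_at 0.01 (interval -0.10 to 0.12). PROS1 stood at -0.10 (interval -0.21 to 0.01) with all GC-1 arrays below all T3 arrays, and PROZ at -0.13 (interval -0.30 to 0.04). Of the 14, 3 did not overlap with GC-1 below T3 and 1 with GC-1 above, where 10.1% and 7.90% of all probe sets did so (18.0% in all). T3 arrays varied more, with a median SD over the 14 probe sets of 0.06 for GC-1, 0.09 for T3 and 0.07 for vehicle. T3 replicate 3 was the highest T3 array in F2, F7, F9, F10, PROC, PROZ, VKORC1, GAS6 1598_g_at and GGCX 213705_at.

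**Figure D3:**
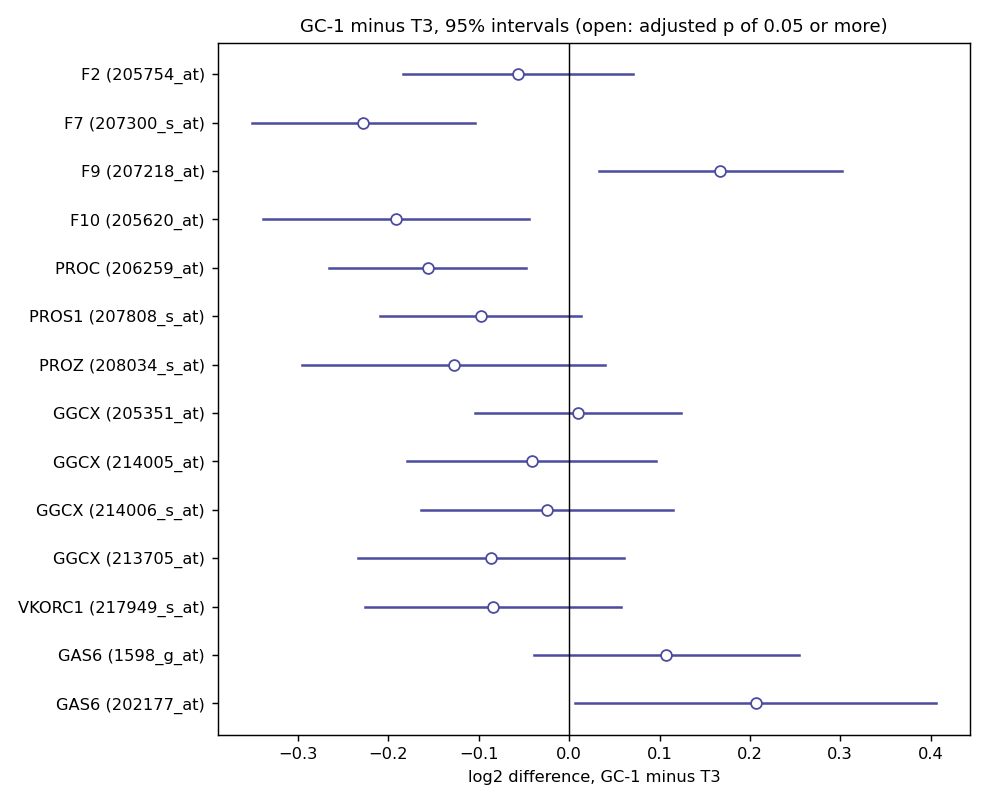
Log2 difference of GC-1 minus T3 (horizontal axis) for the 14 probe sets with 95% confidence intervals from limma. All points are open since none passed at an adjusted p under 0.05, and the intervals of F7, F10 and PROC lie below 0 while those of F9 and GAS6 202177_at lie above it.

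Genes around the members were then read from lists, each gene by its brightest probe set. Read the same way, 251 of all 11963 genes were higher and 139 lower with GC-1, and 539 were higher and 205 lower with T3. An unadjusted p under 0.05 was found for 2031 of the 11963 with GC-1 and 2682 with T3. In the list of the vitamin K cycle and carboxylation, 5 of 8 genes were measured, and 1 rose with either ligand and 0 fell. This was CYP4F2, a hydroxylase that removes vitamin K, at 7.37, 7.31 and 7.50 with GC-1, 7.63, 7.67 and 7.64 with T3, and 7.09, 7.12 and 6.995 with vehicle. The groups did not overlap, in the same order as in F7, and CYP4F2 rose 1.25-fold with GC-1 (adjusted p = 0.0148, limma) and 1.49-fold with T3 (adjusted p = 0.000185). GC-1 minus T3 was -0.25 (interval -0.38 to -0.12, adjusted p = 0.192). Its probe set is of a type that can bind relatives of the gene. The median log2 difference of the list was 0.07 with GC-1 and 0.10 with T3.

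The convertases that cut the propeptide from clotting factors had 0 of 4 genes past the threshold in limma with either ligand, with 2 at an unadjusted p under 0.05 with GC-1 and 1 with T3 (medians -0.04 and -0.07). FURIN had log2 differences of 0.17 with GC-1 and 0.12 with T3, and PCSK6 -0.16 and -0.25. Other proteins known or reported to carry carboxylated glutamates had 0 of 7 with either ligand, with 0 and 1 at an unadjusted p under 0.05 (medians 0.08 and -0.04). Among them the transmembrane protein PRRG4 had differences of 0.12 with GC-1 and 0.12 with T3, and PRRG2 had -0.09 and -0.19.

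Clotting factors without the carboxylated domain rose in 4 of 13 cases with GC-1 and 6 of 13 with T3, and 0 fell (medians 0.08 and 0.11). The fibrinogen chains FGA, FGB and FGG and the factor XIII carrier F13B rose with both ligands, F13B by 1.72-fold with GC-1 and 1.64-fold with T3. The probe set of F13B is dim, at 4.59 to 5.65 over the 9 arrays, and that of KNG1 is also under the median of all probe sets. Kininogen KNG1 and factor XI, F11, rose with T3 by 0.31 and 0.20 on the log2 scale, and had differences of 0.25 and 0.11 with GC-1 (adjusted p = 0.118 and 0.251). The fibrinogen differences were 0.31 to 0.75 with GC-1 and 0.35 to 0.86 with T3. Fibrinolysis genes rose in 0 of 8 cases with GC-1 and 2 of 8 with T3 (medians 0.04 and 0.01). These were plasminogen PLG (0.27) and its plasmin inhibitor SERPINF2 (0.47), with GC-1 differences of 0.13 and 0.33 (adjusted p = 0.382 and 0.0601).

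Of 10 measured inhibitors and cofactors, 2 rose with GC-1 and 3 rose and 1 fell with T3 (medians 0.09 and 0.10). The inhibitors SERPIND1 and SERPINC1 rose with both ligands. C4BPB, a chain of the protein that carries most protein S in plasma, read 10.24, 10.13 and 10.13 with GC-1, 10.22, 10.18 and 10.24 with T3, and 9.98, 10.04 and 9.97 with vehicle. The ligand arrays lay above vehicle and overlapped each other, and C4BPB rose by 0.22 with T3 (adjusted p = 0.0355, limma) while its GC-1 difference was 0.17 (adjusted p = 0.123). TFPI2, a protease inhibitor read by a dim probe set, fell by 0.40 with T3 (adjusted p = 0.0383).

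The receptors of GAS6 were lower with T3 in 2 of 3 cases and passed in 0 of 3 with GC-1 (medians -0.20 with GC-1 and -0.25 with T3). TYRO3 read 7.76, 7.82 and 7.82 with GC-1, 7.77, 7.72 and 7.77 with T3, and 8.004, 8.07 and 7.94 with vehicle. MERTK read 9.10, 9.11 and 9.06 with GC-1, 9.10, 9.09 and 8.97 with T3, and 9.23, 9.43 and 9.25 with vehicle. In both genes all ligand arrays lay below all vehicle arrays. TYRO3 fell by 0.25 with T3 (adjusted p = 0.0142, limma) and MERTK by 0.25 (adjusted p = 0.044), and the GC-1 differences were -0.20 (adjusted p = 0.0601) and -0.21 (adjusted p = 0.119).

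Transcription factors that act on clotting genes in the liver rose in 3 of 10 measured cases with either ligand, and 0 fell (medians 0.15 with GC-1 and 0.14 with T3). These were CEBPB, CEBPA and DBP, the last read by a dim probe set, with CEBPA at 0.36 with GC-1 and 0.48 with T3. For scale, the known thyroid hormone targets KLF9, DIO1, CPT1A, PCK1 and ANGPTL4 rose by 1.58-fold to 2.18-fold with GC-1 and by 1.65-fold to 2.72-fold with T3, each more than any of the 10 members. The receptor genes THRA and THRB passed with neither ligand.

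**Figure D4:**
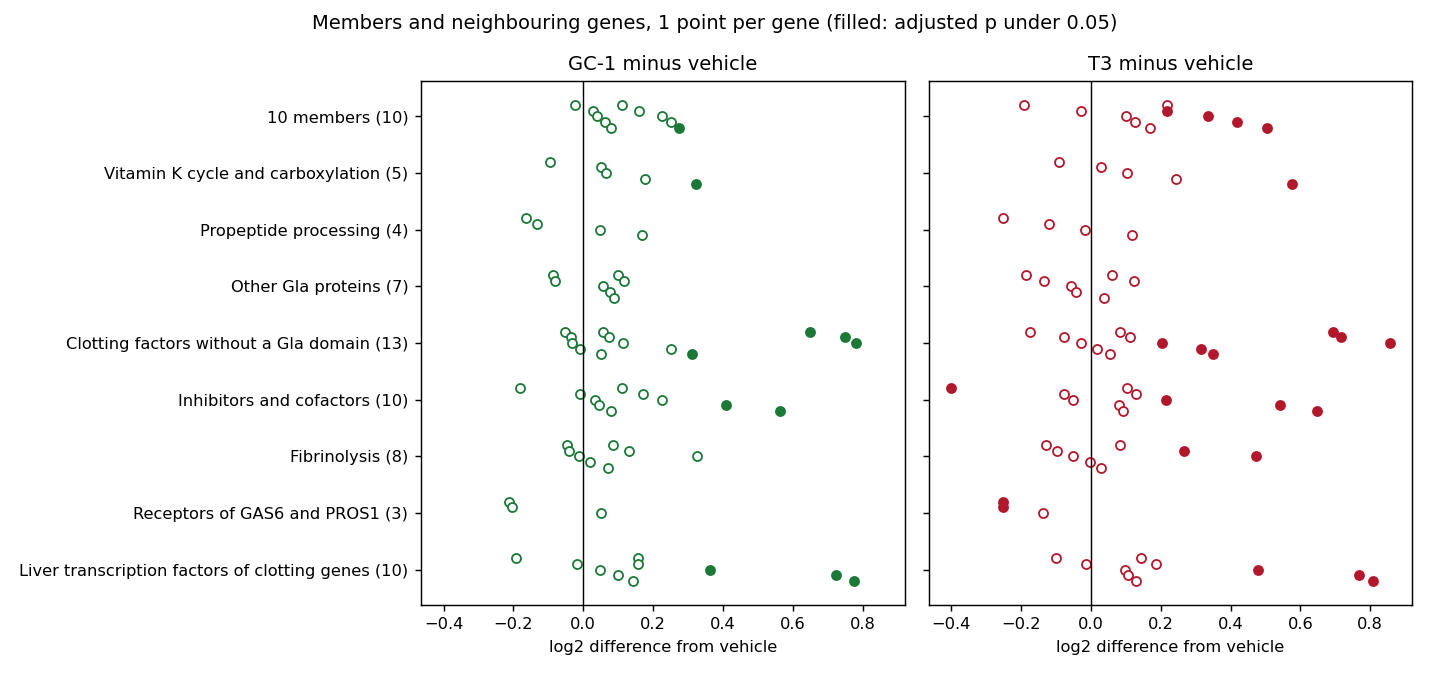
Log2 difference from vehicle (horizontal axes) with GC-1 on the left and T3 on the right, for the 10 members and for 8 lists of neighbouring genes, 1 point per gene by its brightest probe set, with the number of genes in brackets. Filled points have an adjusted p under 0.05 and vertical offsets only separate points. The members reach 0.28 with GC-1 and 0.50 with T3, while FGA among the other clotting factors stands at 0.75 and 0.86.

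F7 had the smallest p of the members in the mean of the ligands against vehicle, and the genes whose signal followed it most closely over the 9 arrays were NINJ1 (Pearson's r 0.991), CCS (0.984), CSTB (0.982), GDPD5 (0.979) and APOC3 (0.976), out of 6895 genes at or above the median signal. These correlations describe 9 arrays in 3 groups and share the arrays and their normalization. The genes were chosen by this likeness, so rises in the order seen in F7 follow largely from the choice. The apolipoprotein APOC3 rose by 0.28 with GC-1 and 0.48 with T3 and the protease inhibitor CSTB by 0.27 and 0.44, close to the 0.28 and 0.50 of F7. NINJ1, CCS and GDPD5 rose with T3 by 0.24 to 0.27, and their GC-1 differences of 0.14 to 0.16 did not pass.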

How the data were processed

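Total RNA from HepG2 cells, 1 sample for each of 9 arrays, was hybridised to Affymetrix arrays, per the labels. The deposited log2 values, 1 per probe set and array, were made by the authors with RMA, per the submitters' processing notes, with version not given in the sources used here. The base was inferred from the range of values, 3.15 to 14.5. The values were used as deposited. Of 22277 probe sets 62 array controls were left out. The annotation gave 1 symbol to 19064 of the other 22215, several to 1043 and none to 2108; Entrez identifiers of 19052 matched the RefSeq table. Detection of single probe sets was not examined, and RMA compresses differences of dim ones.

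Groups came from the sample titles. A single limma 3.58.1 model of group means over all 9 arrays (lmFit, eBayes, R 4.3.3, two-sided) gave differences, SEs and 95% intervals, and Benjamini-Hochberg adjustment ran over all 22215 probe sets. The script was tested on simulated data. Samples with the same replicate number in different groups did not deviate together (r from -0.26 to 0.08 over 9 pairs), so the numbers are not taken to pair samples. The members and lists were chosen with earlier results of these data known. All members are named; of each list, the passing genes with the smallest p in the mean of the ligands, up to 6, or the 2 nearest where none passed; and the 5 genes most like the leading member. The alternatives were quantile normalization, the trend and robust options, array weights, no dim probe sets, a replicate block, the interquartile range as a covariate, only the groups compared, and arrays left out.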

Additional observations from a re-analysis of the deposited data

How the results depend on the processing

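Each of the 14 probe sets was refitted in each contrast under up to 17 settings, which gave 708 values; 646 kept their direction and their side of the threshold, 18 passed where they had not, 16 no longer passed and 28 changed sign. F9 and the dim GAS6 probe set had no value without dim probe sets. The values that no longer passed were those of F7 with GC-1, PROC with T3 and VKORC1 with T3. They are given above, except that of PROC with T3 replicate 3 alone, a setting that supports no call. No F7 or F10 call with T3 was lost. The sign changes were in differences that did not pass under any of these settings and were close to 0. After quantile normalization, GC-1 minus T3 was 0.0085 in GGCX 214005_at and 0.016 in GGCX 214006_s_at. With the interquartile range as a covariate, GC-1 minus vehicle was -0.0080 in GGCX 213705_at, and T3 minus vehicle was 0.073 in GAS6 1598_g_at, 0.041 in GAS6 202177_at and -0.027 in GGCX 214005_at, and GC-1 minus T3 was -0.033 in GAS6 1598_g_at, 0.10 in GGCX 214005_at and 0.025 in GGCX 214006_s_at. With T3 replicate 3 as the only T3 array, T3 minus vehicle was 0.068 in GAS6 1598_g_at, 0.0083 in GAS6 202177_at and -0.0083 in GGCX 214005_at, and GC-1 minus T3 was 0.043 in GGCX 214005_at and 0.021 in GGCX 214006_s_at. Without single arrays, differences that changed sign ranged for GC-1 minus vehicle -0.060 to 0.014 in F9, -0.0092 to 0.053 in GGCX 213705_at, -0.074 to 0.018 in GGCX 214006_s_at, -0.0025 to 0.050 in PROS1 and -0.038 to 0.081 in PROZ; for T3 minus vehicle -0.081 to 0.0037 in GAS6 1598_g_at, -0.14 to 0.015 in GAS6 202177_at and -0.062 to 0.043 in GGCX 214006_s_at; for GC-1 minus T3 -0.0067 to 0.021 in GGCX 205351_at, -0.084 to 0.0085 in GGCX 214005_at and -0.050 to 0.024 in GGCX 214006_s_at.

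Member probe sets called with T3 numbered 4, and 2 to 5 when single arrays were left out, with 2 without vehicle replicate 3. With GC-1 the 1 call became 2 with quantile normalization, with T3 replicates 1 and 2 left out or with only the groups compared, 3 with array weights or without dim probe sets, 4 with trend and robust, and 0 to 2 without single arrays (0 without any 1 GC-1 or vehicle array, 2 without T3 replicate 3). Over all probe sets T3 called 1222 (888 higher, 334 lower), 1957 with trend and robust, 753 with only the groups compared, 773 with the replicate block and 2084 with the covariate (932 higher, 1152 lower). With T3 replicate 3 as the only T3 array, its spread taken from the other groups, the split was 850 higher and 980 lower. The range without single arrays was 661 to 1356. GC-1 called 622 (403 higher, 219 lower), 1435 (706 and 729) with array weights, 1347 (653 and 694) with trend and robust, 1236 (597 and 639) without dim probe sets, 1061 (522 and 539) without T3 replicates 1 and 2 and equally with only the groups compared, 347 (264 and 83) with the replicate block, and 274 to 1272 without single arrays. GC-1 minus T3 called 0, and 22 with trend and robust, 3 without dim probe sets and 338 without T3 replicate 3, otherwise 0. With the replicate block the member counts were 3 with T3 and 1 with GC-1. The causes of these shifts were not tested. The number of arrays and the signal over background limit precision.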

Other observations

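Protein C and protein Z act with partners that the report does not describe, named here after their values were seen. THBD, the thrombin receptor on which protein C is activated, read 5.78, 6.02 and 5.93 with GC-1, 5.51, 5.63 and 5.68 with T3, and 5.68, 5.72 and 5.66 with vehicle. All GC-1 arrays lay above all T3 and vehicle arrays, with GC-1 minus vehicle at 0.23 (adjusted p = 0.122, limma), T3 minus vehicle at -0.08 (adjusted p = 0.565) and GC-1 minus T3 at 0.30 (95% interval 0.15 to 0.46, adjusted p = 0.176). The probe set is dim. PROCR, the receptor that presents protein C, had log2 differences of -0.01 with GC-1 and -0.05 with T3, and SERPINA10, the partner of protein Z, 0.05 and 0.09, and none of them passed. AXL, the remaining receptor of GAS6, read 7.73, 7.72 and 7.78 with GC-1, 7.49, 7.63 and 7.55 with T3, and 7.65, 7.80 and 7.64 with vehicle. T3 arrays lay below GC-1 and vehicle arrays, with T3 minus vehicle at -0.14 (adjusted p = 0.209) and GC-1 minus T3 at 0.19 (interval 0.06 to 0.32, adjusted p = 0.240).

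MAT2A, which overlaps GGCX, had log2 differences of -0.22 and -0.27 with GC-1 and of -0.12 and -0.26 with T3 in its 2 probe sets (adjusted p from 0.152 to 0.368).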
